A study of Mus musculus with 8 samples.

Results

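The interferon-γ (IFNγ)-inducible GTPases examined here were 5 guanylate-binding proteins (GBPs; *Gbp2*, *Gbp3*, *Gbp4*, *Gbp5* and *Gbp7*) and 5 immunity-related GTPases (IRGs; *Igtp*, *Irgm1*, *Irgm2*, *Iigp1* and *Ifi47*) in mouse regulatory T (Treg) cells. The 10 genes were chosen by family and name out of 53360 genes with an exon length. All 10 had enough reads for every comparison made below.

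Treg cells were sorted from spleen and lymph nodes of mice backcrossed to C57BL/6 and aged 3 to 4 weeks. RNA of 8 Treg populations was sequenced as 8 libraries, 1 per condition. *Brg1* (*Smarca4*) encodes the ATPase of the BAF chromatin remodeling complex. In the reversible knockout (rKO) mice, Cre expressed from *Foxp3* with YFP removes a floxed *Brg1* allele (F), while the other allele (ΔR) is a trapped null carrying a GFP reporter, which the tamoxifen (TAM)-dependent recombinase FlpoER restores. The ΔR line was made on a mixed background and backcrossed to C57BL/6 for only 3 generations. The other lines were backcrossed for more than 8. According to the labels, the mice of all 8 libraries carried the R26 CAG-FlpoER allele. The 6 libraries of total Treg cells were WT (*Brg1* F/+ and *Foxp3* YFP-Cre/+, thus heterozygous for *Brg1* in cells with Cre), the *Brg1*-sufficient (*Brg1* F/ΔR, *Foxp3* +/+) and the *Brg1*-deleted (*Brg1* F/ΔR, *Foxp3* YFP-Cre) Treg cells of mosaic females, Treg cells of untreated rKO1 mice (*Brg1* F/ΔR, *Foxp3* YFP-Cre/YFP-Cre), and the *Brg1*-deleted and the *Brg1*-reexpressed Treg cells isolated from rKO1 mice 7 days after a low dose of TAM. The reexpressed cells are listed as *Brg1* F/+. In mosaic females, *Foxp3* lies on the X chromosome and Cre is active in some Treg cells only, so that both populations live in a healthy host. The rKO1 mice are the more severely inflamed of the rKO mice. Both subsets of the TAM-treated rKO1 mice were separated by GFP. A separate experiment held 2 libraries of activated Treg (aTreg) cells, which are CD44hi CD62Llo, from rKO1 mice 7 days after TAM, listed as *Brg1* F/F (labelled *Brg1*-deleted) and *Brg1* F/+ (labelled *Brg1*-reexpressed), both with *Foxp3* YFP-Cre/YFP-Cre. The number of mice behind a library is not given in the sources used here.

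Between 16288586 and 24039566 reads fell on genes in each library, and a single read was worth 0.0412 to 0.0603 CPM, the read count scaled to library size. As each condition has 1 library, differences could not be checked against replicates and no p-value is given. The 95% intervals below are exact and describe the sampling of reads, not the spread between mice. Levels are given as TMM-scaled FPKM, the deposited reads per exon length and library total after a further scaling between libraries. The targeted gene *Smarca4* stood at 13.6 in WT and 11.9 in mosaic *Brg1*-sufficient cells, at 7.29, 6.81 and 5.57 in the mosaic, untreated rKO1 and TAM-treated rKO1 *Brg1*-deleted cells, and at 8.97 in *Brg1*-reexpressed cells. In the aTreg experiment *Smarca4* went against the labels, with 10.99 in the library labelled *Brg1*-deleted and 9.17 in the library labelled *Brg1*-reexpressed. The values of the former are also headed as WT and its genotype is given as *Brg1* F/F, so each aTreg difference below is given by label only. The *Smarca4* value covers all exons and does not measure the deleted part alone. All 10 Treg and T cell markers were detected in every library. Markers of other cells were present as well. Of 18 myeloid and dendritic cell markers, between 15 and 18 were above 3 reads in a library, with *S100a9*, *Siglech* and *Flt3* at 0 in at least 1 library. Their summed level ranged from 811 CPM (mosaic *Brg1*-deleted) to 1303 CPM (untreated rKO1) in total Treg cells and was 1092 and 1991 CPM in the aTreg libraries labelled deleted and reexpressed. The 9 B and plasma cell markers summed to between 40.6 and 155 CPM over the 8 libraries, and the 6 CD8 T and NK cell markers to between 13.5 and 36.3 CPM. Sums can hide shifts of single markers, so the counts of called myeloid and dendritic cell markers are given beside each comparison. Several of these markers, *Cd74* and the MHC class II genes, are IFNγ-inducible themselves. Myeloid cells also express GBP and IRG genes. In bulk RNA, fewer cells of a type and less RNA per cell cannot be told apart.

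IFNγ binds the receptor chains IFNGR1 and IFNGR2, which signal through the kinases JAK1 and JAK2 to GAS elements in promoters. IFNγ also induces IRF1, and IRF family factors bind ISRE elements, which type I interferon (IFN) uses as well. GBPs and IRGs are among the genes most strongly induced by IFNγ in nearly all cell types. Their products are GTPases that gather on the vacuoles of intracellular pathogens, damage them and feed inflammasome and autophagy pathways. Within the IRGs, *Igtp* (Irgm3), *Irgm1* and *Irgm2* encode regulators that sit on the membranes of the cell itself, while *Iigp1* (Irga6) and *Ifi47* (Irgd) encode effectors that load onto the vacuole. In Treg cells, IFNγ signaling goes with the Th1-like program marked by CXCR3.

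Most of the members carried interferon response motifs close to a RefSeq start. In 250 bases before the RefSeq start (GRCm38.p6), both strands were searched for the GAS letters TTCNNNGAA and the ISRE core, GAAA followed after any 2 bases by GAAA. Windows of 8 of the 10 genes were searched, with 2 windows for *Gbp3* and none for *Gbp4* or *Iigp1*. The ISRE core was found in 7 of 9 windows (77.8%), against 978 of 32851 windows of all genes (2.98%), and GAS in 4 of 9 windows (44.4%), against 2306 of 32851 (7.02%). The stretches below are shown because they hold the ISRE core, on either strand, of each searched gene that has one. They are written along the strand of the gene, with the letters of a GAS or ISRE match in capitals and 7 bases on either side.
*Gbp2* (chr3:142620597-142620620): cttttagTTTCACTTTCactgtct
*Gbp3* (chr3:142559992-142560021): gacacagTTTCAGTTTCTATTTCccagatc
*Gbp5* (chr3:142496762-142496785): tgtgtagTTTCAATTTCagtttag
*Gbp7* (chr3:142530223-142530299): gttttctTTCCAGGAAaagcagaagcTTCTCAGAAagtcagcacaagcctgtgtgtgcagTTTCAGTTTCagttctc
*Igtp* (chr11:58199504-58199538): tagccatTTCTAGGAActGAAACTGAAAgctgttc
*Irgm2* (chr11:58214895-58214929): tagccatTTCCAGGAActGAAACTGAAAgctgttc
*Irgm1* (chr11:48871428-48871457, minus strand): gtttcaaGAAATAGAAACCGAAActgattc

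In *Igtp* and *Irgm2* a GAS match lay next to an ISRE match, with the same ISRE letters. Their windows were identical at 60.9% of 220 aligned bases, so these matches may not be independent. *Gbp3* and *Gbp7* have an ISRE match with the same letters, and *Gbp5* and *Gbp7* a GAS match with the same letters. With *Gbp2* they are neighbours on chromosome 3. The identity of their windows was not measured, so their matches may not be independent either. The *Gbp3* and *Irgm1* stretches each hold 2 overlapping ISRE matches. *Gbp5* has its GAS matches elsewhere in the window, and *Gbp7* has 2 GAS matches and an ISRE match in 1 stretch. The *Ifi47* window and the second *Gbp3* window held neither motif. All 30 bases of the *Irgm1* stretch and 19 of the 24 bases of the *Gbp2* stretch lie in GENCODE exons. For *Gbp7* and *Irgm2* the first bases from the RefSeq start were not found in a GENCODE transcript. The *Irgm2* window begins at 58214727, inside the annotated gene (58199618-58222782). A match is a description of the letters and not a bound site.

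**Figure D1:**
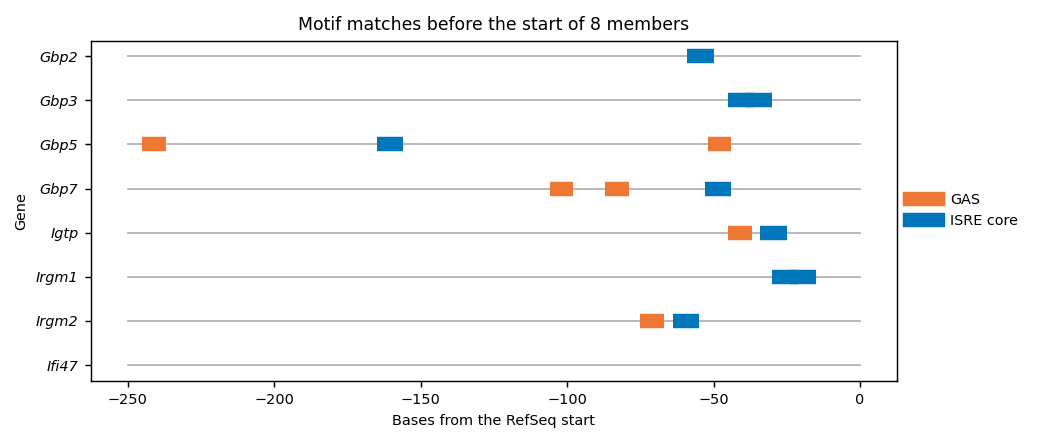
Positions of GAS and ISRE core matches in the 250 bases before the RefSeq start of 8 genes, for the first *Gbp3* window, with the distance from the start in bases on the horizontal axis and 1 gene per line. The ISRE core was present in 7 of these 8 genes and neither motif in *Ifi47*.

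Levels were compared between genes as TMM-scaled FPKM, which is per exon length. *Igtp* was the most abundant member in all 8 libraries, from 154 to 265 in total Treg cells, and *Gbp5* the least, from 2.70 to 5.31. *Ifi47* was second in every total Treg library. In WT cells the order was *Igtp* (254), *Ifi47* (130), *Irgm1* (41.9), *Gbp7* (33.6), *Iigp1* (26.7), *Gbp2* (26.2), *Gbp3* (24.5), *Gbp4* (16.1), *Irgm2* (6.64) and *Gbp5* (2.70), in which the counting intervals of the neighbours *Iigp1*, *Gbp2* and *Gbp3* overlapped. In untreated rKO1 cells *Irgm1* had moved to eighth place, and *Gbp7*, *Gbp3*, *Iigp1* and *Gbp2* had overlapping intervals in turn. The summed level of the GBPs was 103, 113 and 104 in WT, mosaic *Brg1*-sufficient and mosaic *Brg1*-deleted cells and 179, 122 and 177 in untreated, TAM-treated *Brg1*-deleted and TAM-treated *Brg1*-reexpressed rKO1 cells. All 3 rKO1 sums were above all 3 others. The summed IRGs, set mostly by *Igtp*, were 460, 292, 305, 358, 272 and 423 in the same libraries, without such a separation.

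Among the GBPs, *Gbp2*, which is recruited to pathogen vacuoles and supports inflammasome activation (chr3:142620602-142638008, plus strand), stood at 26.2 in WT, 22.9 in mosaic *Brg1*-sufficient, 23.0 in mosaic *Brg1*-deleted, 42.6 in untreated rKO1, 29.3 in TAM-treated *Brg1*-deleted and 34.1 in TAM-treated *Brg1*-reexpressed cells. Its 3 rKO1 libraries were all above the 3 libraries of WT and mosaic hosts. *Gbp3*, a neighbour of *Gbp2* (chr3:142560026-142573209, plus strand), was at 24.5, 29.6, 21.7, 45.6, 35.8 and 57.1 in the same order, which is kept from here on. It was highest in the *Brg1*-reexpressed cells, and again no rKO1 library overlapped the others. *Gbp4*, from the GBP cluster on another chromosome (chr5:105115767-105139586, minus strand), was at 16.1, 10.4, 16.4, 37.6, 21.2 and 29.97. *Gbp4* had the widest span of the 10 genes, 3.6-fold between its highest and its lowest library, with the rKO1 libraries once more all above.

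*Gbp5*, which promotes assembly of the NLRP3 inflammasome (chr3:142493978-142522344, plus strand), was at 2.70, 3.67, 3.39, 5.31, 3.00 and 3.01. Only its untreated rKO1 library stood above the mosaic libraries. *Gbp7*, linked to assembly of NADPH oxidase at the vacuole (chr3:142530342-142550149, plus strand), was at 33.6, 46.0, 39.6, 48.3, 32.9 and 52.8. *Gbp7* therefore ranged least, 1.61-fold, and its groups overlapped. Of its exon bases, 11.3% overlap the gene Gm43802, so reads there may have been divided between them.

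Of the IRG regulators, *Igtp* (chr11:58199556-58207591, plus strand) was at 254, 154, 167, 224, 176 and 265. *Igtp* was thus high in WT, untreated rKO1 and *Brg1*-reexpressed cells and low in the others. *Irgm1* (chr11:48861968-48871683, minus strand) was at 41.9, 24.9, 26.7, 22.7, 16.3 and 28.7, with WT apart from the rest. *Irgm2* (chr11:58199618-58222782, plus strand) was at 6.64, 7.36, 7.64, 12.5, 5.65 and 8.63. The TAM-treated *Brg1*-deleted library was the lowest for both *Irgm1* and *Irgm2*. *Igtp* and *Irgm2* overlap on the same strand over 8.01% and 4.39% of their exon bases, and their shared reads cannot be assigned with certainty.

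Of the IRG effectors, *Iigp1* (chromosome 18) was at 26.7, 25.6, 15.9, 43.9, 18.3 and 42.6. Its pattern was one of high untreated and *Brg1*-reexpressed rKO1 cells over low *Brg1*-deleted cells of both the mosaic and the TAM-treated mice. *Ifi47* (chr11:49076587-49096974, plus strand) was at 130, 79.8, 87.9, 54.5, 55.3 and 78.0. This order was unlike that of every GBP, as WT and mosaic cells stood above all rKO1 cells. The lowest of them exceeded the highest rKO1 library by little, 79.8 against 78.0.

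**Figure D2:**
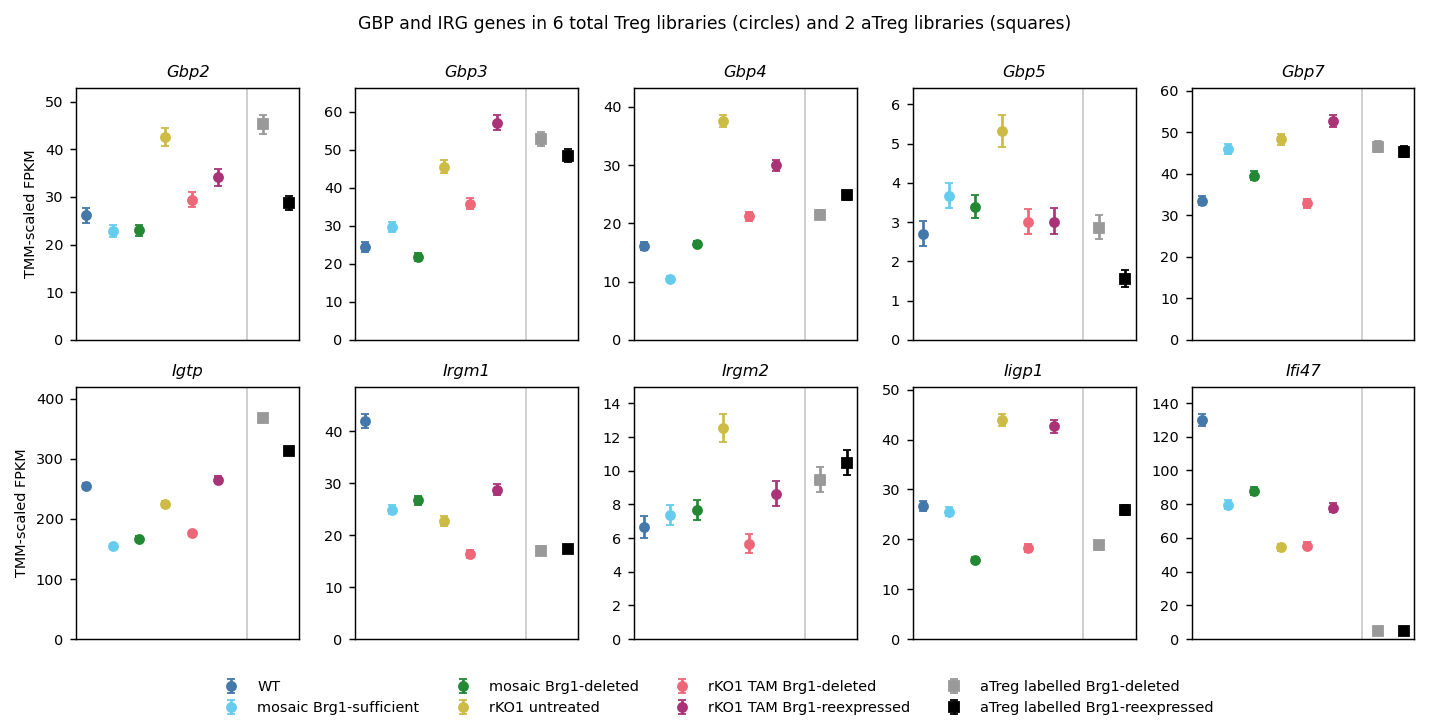
TMM-scaled FPKM of the 10 genes, 1 panel per gene, with circles for the 6 total Treg libraries, squares for the 2 aTreg libraries and bars for exact 95% intervals of the reads. *Gbp2*, *Gbp3* and *Gbp4* have their 3 rKO1 libraries above the WT and mosaic libraries, and *Ifi47* has them below by a small margin that is lost with FPKM as deposited or median-of-ratios scaling.

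The first question was whether Treg cells of inflamed hosts differ from those of healthy hosts. The 3 rKO1 libraries lay wholly above the 3 WT and mosaic libraries for 3 of the 10 genes (*Gbp2*, *Gbp3* and *Gbp4*), where 9.49% of all 11039 genes tested did so, and wholly below for 1 gene (*Ifi47*), where 12.5% of all genes did so. The other 6 overlapped. These libraries are different conditions and not replicates. The count above rests in part on the TAM-treated *Brg1*-deleted library: without it 6 of the 10 genes lay wholly above, with *Gbp7*, *Irgm2* and *Iigp1* joining, against 12.3% of all genes. The *Ifi47* result was lost with FPKM as deposited and with median-of-ratios scaling, both of which gave 0 genes wholly below. The share of all genes was not determined for either. Without the *Brg1*-reexpressed library, *Irgm1* lay below as well, making 2 genes, where 20% of all genes did so. Of 12 tested myeloid and dendritic cell markers, 5 lay wholly above and 1 wholly below in rKO1 cells, and their part in these counts was not tested.

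Untreated rKO1 cells were compared with WT cells, the pair in which both the host and *Brg1* differ. Only the rKO1 genotype carries ΔR, whose line was backcrossed for fewer generations. A gene was called at a difference of 2-fold or more with at least 5 CPM in either library. *Gbp4* was 2.34-fold higher in untreated rKO1 cells (95% interval 2.22–2.47) and *Ifi47* was 2.38-fold lower (2.27–2.50), so that 1 gene was called higher and 1 lower, against 8.6% and 7.11% of 10473 genes tested. The remaining GBPs were between 1.44-fold (*Gbp7*) and 1.97-fold (*Gbp5*, 1.72–2.26) higher. *Irgm2* and *Iigp1* were 1.88-fold and 1.65-fold higher, whereas *Irgm1* was 1.85-fold (1.76–1.94) and *Igtp* 1.13-fold lower. All 5 GBPs were above WT beyond counting error, but only 2 of the 5 IRGs were. The median log2 fold change of the 10 genes was 0.71, and that of all genes tested was -0.05. Myeloid and dendritic cell markers moved with them, with 5 called higher and 1 lower of 10 tested and a median of 0.81, and their part in the result was not tested. Scaled by total reads alone, 5 genes were called higher, none was called lower and *Igtp* was above WT by 0.11 on the log2 scale. That scaling moved all genes of the pair upwards, and the share of all genes called under it was not determined.

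Against mosaic *Brg1*-deleted cells, which lack *Brg1* in a healthy host, the host differs and *Brg1* is deleted on both sides. Here *Iigp1* was 2.76-fold (2.63–2.90), *Gbp4* 2.29-fold (2.19–2.39) and *Gbp3* 2.10-fold (1.97–2.23) higher in untreated rKO1 cells. These 3 of 10 genes were called higher, against 8.16% of 10407 genes tested, and none was called lower, against 6.96%. *Gbp2* was 1.85-fold, *Irgm2* 1.64-fold, *Gbp5* 1.57-fold, *Igtp* 1.34-fold and *Gbp7* 1.22-fold higher. *Ifi47* and *Irgm1* were the exceptions, at 1.61-fold and 1.18-fold lower. The median log2 fold change was 0.68, against -0.05 for all genes. That of the 10 tested myeloid and dendritic cell markers was larger, 1.19, with 6 called higher and none lower, and their part in the result was not tested. This comparison and the previous one share the untreated rKO1 library, and so does the next one.

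*Brg1*-deleted cells from TAM-treated rKO1 mice were lower than untreated rKO1 cells for 9 of the 10 genes, although *Brg1* is deleted in both. *Iigp1* was 2.40-fold lower (2.28–2.52) and *Irgm2* 2.21-fold lower (1.96–2.50). Those 2 genes were called lower, against 2.26% of 10297 genes tested, and none was called higher, against 2.16%. *Gbp4* and *Gbp5* were both 1.77-fold lower, *Gbp7* 1.47-fold, *Gbp2* 1.45-fold, *Irgm1* 1.39-fold, and *Gbp3* and *Igtp* 1.27-fold lower. *Ifi47* was level, at a ratio of 1.01 (0.960–1.07). The median log2 fold change was -0.55, against 0.00 for all genes. Of 12 tested myeloid and dendritic cell markers, 2 were called higher and 1 lower (median -0.19). TAM itself cannot be told apart from the presence of *Brg1*-reexpressed cells in the same mice. Nor can it be told apart from the sort by GFP or from differences between mice. The paper describes the severity of inflammation as somewhat variable among rKO mice.

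The next question was how *Brg1*-deleted and *Brg1*-bearing cells of one host differ. In mosaic females no gene was called in either direction between *Brg1*-deleted and *Brg1*-sufficient cells, against 2.09% higher and 4.03% lower of 10064 genes tested. *Iigp1* had the largest difference, 1.61-fold lower in deleted cells (1.53–1.70), followed by *Gbp4*, 1.57-fold higher (1.48–1.67), and *Gbp3*, 1.36-fold lower (1.28–1.45). *Gbp2*, at a ratio of 1.0 (0.93–1.09), *Irgm2* (1.04, 0.927–1.16) and *Gbp5*, 1.08-fold lower (0.957–1.22), did not differ beyond counting error. Beyond counting error, 4 genes were higher and 3 lower in deleted cells, and the median was 0.03 on the log2 scale. The members thus went both ways in the healthy host. None of 6 tested myeloid and dendritic cell markers was called. Of 10 tested Treg and T cell markers, 1 was called lower in deleted cells and none higher. Beyond counting error, 7 of these markers were lower and 3 higher, at a median of -0.24 on the log2 scale. The deleted cells were YFP-positive and the sufficient cells YFP-negative. The part of the markers and of the sort in these values was not tested.

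In TAM-treated rKO1 mice *Brg1*-reexpressed cells were compared with *Brg1*-deleted cells. *Iigp1* was 2.33-fold higher in reexpressed cells (2.21–2.45) and was the only gene called, against 7.13% higher of 10314 genes tested. None was called lower, against 5.62%. *Irgm1* was 1.76-fold, *Gbp7* 1.61-fold, *Gbp3* 1.6-fold, *Irgm2* 1.53-fold, *Igtp* 1.5-fold, *Gbp4* and *Ifi47* 1.41-fold and *Gbp2* 1.16-fold higher (1.08–1.25), and *Gbp5* was level at 1.0 (0.86–1.16). Hence 9 of the 10 genes were above the deleted cells beyond counting error and none was below, and their median difference was 0.60 on the log2 scale against 0.06 for all genes. Scaling by total reads alone brought the median to 0.25 and the called genes to 0, and turned *Gbp2* and *Gbp5* to -0.13 and -0.35. The share of all genes called under that scaling was not determined. The TAM-treated *Brg1*-deleted library is shared with the comparison with untreated cells above, so the 2 results are not independent. In the same pair 5 of 12 tested myeloid and dendritic cell markers were called lower and none higher in reexpressed cells (median -0.83 on the log2 scale), although their sums were close, and 8 of 10 Treg and T cell markers were higher beyond counting error (median 0.45). Their part in the differences of the GTPases was not tested.

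*Brg1*-reexpressed cells were also set beside the *Brg1*-sufficient cells of healthy hosts. Compared with WT, *Gbp3* was 2.33-fold higher (2.19–2.49) and the only gene called, against 9.74% higher of 10320 genes tested, and none was called lower, against 7.37%. *Gbp4* was 1.87-fold, *Iigp1* 1.6-fold and *Gbp7* 1.57-fold higher, *Igtp* was at 1.04 (1.01–1.07), and *Ifi47* and *Irgm1* were 1.67-fold and 1.46-fold lower. Compared with mosaic *Brg1*-sufficient cells, *Gbp4* was 2.87-fold higher (2.71–3.04) and the only gene called, against 10.8% higher of 10332 genes tested, and none was called lower, against 10.9%. *Gbp3* was 1.93-fold, *Igtp* 1.72-fold and *Iigp1* 1.67-fold higher, while *Gbp5* was 1.22-fold lower and *Ifi47* level at 1.02-fold lower (0.977–1.07). With FPKM as deposited or median-of-ratios scaling, 2 genes were called higher in this comparison, and the share of all genes was not determined for either. The median log2 fold changes were 0.38 and 0.40. Myeloid and dendritic cell markers were called lower for 3 and higher for none of 10 tested over WT, and higher for 1 and lower for 1 of 8 tested over mosaic *Brg1*-sufficient cells.

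The healthy *Brg1*-sufficient populations, WT and mosaic, differed from each other as well. No gene was called, against 5.14% higher and 4.18% lower in mosaic cells of 10136 genes tested. *Irgm1*, *Igtp* and *Ifi47* were 1.69-fold, 1.65-fold and 1.63-fold lower in mosaic *Brg1*-sufficient cells and *Gbp4* was 1.54-fold lower, whereas *Gbp7* and *Gbp5* were 1.37-fold and 1.36-fold higher. Differences of this size therefore occurred between 2 populations that both have *Brg1* and a healthy host. They were as large as many of those given above. The 2 populations also differed in other respects. The mosaic *Brg1*-sufficient cells were YFP-negative, whereas the paper's general gate for Treg cells was YFP-positive. Only the mosaic genotype carries ΔR, whose line was backcrossed for fewer generations. Of 10 tested Treg and T cell markers, 1 was called higher in mosaic cells, at 2.88 on the log2 scale, and none lower. Of 10 tested myeloid and dendritic cell markers, 5 were called lower and none higher in mosaic cells (median -0.82), and their part was not tested.

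**Figure D3:**
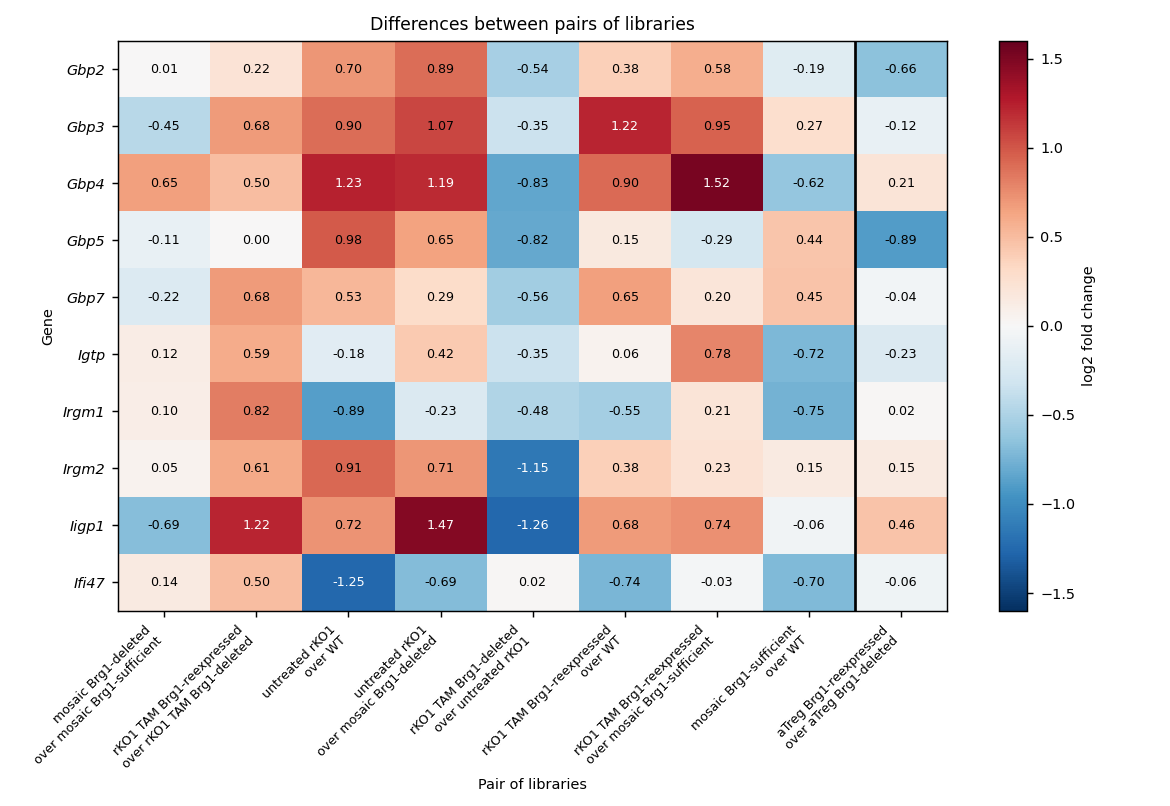
Log2 fold changes of the 10 genes (rows) in 9 pairs of libraries (columns), with red for higher and blue for lower in the library named first and the aTreg pair to the right of the line. *Iigp1* reaches 1.47 in untreated rKO1 over mosaic *Brg1*-deleted cells and *Ifi47* -1.25 in untreated rKO1 over WT cells, and columns that share a library are not independent.

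In aTreg cells the 2 libraries were compared only with each other, as they were sequenced in a separate experiment. *Igtp* was again the most abundant, at 368 in the library labelled *Brg1*-deleted and 313 in the library labelled *Brg1*-reexpressed. *Gbp3* stood at 52.7 and 48.4, *Gbp7* at 46.6 and 45.3, *Gbp2* at 45.2 and 28.7, and *Gbp4* at 21.5 and 24.8. *Iigp1* stood at 18.8 and 25.9, *Irgm1* at 17.0 and 17.3, *Irgm2* at 9.47 and 10.48, and *Gbp5* at 2.85 and 1.54. *Ifi47* was listed at only 5.0 and 4.79 from 219 and 233 reads, against 2504 reads or more in each total Treg library. Of its exon bases, 8.77% overlap the genes Gm12188 and Olfr56. Whether its reads were counted alike in both experiments was not tested.

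No gene was called between the aTreg libraries, against 4.4% higher and 2.03% lower of 10035 genes tested. *Gbp5* was 1.85-fold lower (1.55–2.22) and *Gbp2* 1.58-fold lower (1.47–1.69) in the library labelled reexpressed, and *Iigp1* was 1.38-fold higher (1.3–1.46). *Gbp7*, *Irgm1*, *Irgm2* and *Ifi47* did not differ beyond counting error. The median log2 fold change of -0.05 was close to that of all genes, -0.06. Of 12 tested myeloid and dendritic cell markers, 6 were called higher and none lower in the library labelled reexpressed (median 0.86), and their part in these values was not tested.

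The IFNγ pathway itself was measured through 16 genes of ligand, receptor and signaling. *Ifng*, the ligand, was at 3.26, 0.839, 0.445, 6.39, 13.9 and 10.4 in the 6 total Treg libraries, the 3 rKO1 libraries being the highest. *Ifng* was 14.2-fold higher in untreated rKO1 than in mosaic *Brg1*-deleted cells, although from 158 and 14 reads (8.29–26.8). *Irf1*, an IFNγ-induced factor for ISRE elements, was at 85.9, 69.5, 92.7, 103, 98.5 and 112.

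Of the receptor chains, *Ifngr1* was highest in *Brg1*-reexpressed cells, at 118 against 64.3 to 90.0 elsewhere, and *Ifngr2* lowest there, at 5.95 against 11.3 to 21.3. The kinase genes *Jak1* and *Jak2* ranged from 37.1 to 70.7 and from 6.65 to 10.8. *Irf8*, an IFNγ-induced factor, was at 16.0 in untreated rKO1 and between 6.43 and 12.7 elsewhere, and it was the only 1 of 15 tested signaling genes called higher over WT (2.48-fold, 2.28–2.70), where 8.6% of all genes were. *Socs1*, the feedback inhibitor, was 3.05-fold lower in *Brg1*-reexpressed than in mosaic *Brg1*-sufficient cells (2.95–3.15). *Irf9*, an IRF family factor for ISRE elements, ranged from 19.9 to 39.5, with all 3 rKO1 libraries at the low end. Of the 15 tested genes of this list, 3 lay wholly above and 3 wholly below in rKO1 cells, against 9.49% and 12.5% of all genes.

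The rest of the GBP and IRG family did not move as one. Of 16 further genes, 13 were tested between untreated rKO1 and WT cells, and 3 were called higher and 4 lower, against 8.6% and 7.11% of all genes. The largest differences were *Gbp10* (4.89-fold lower, 3.72–6.54), *Tgtp2* (3.54-fold lower) and *Tgtp1* (3.18-fold lower). These are uncertain because *Gbp10*, *Tgtp1* and *Tgtp2* share 73.5%, 73.1% and 76.8% of their 100-base words with other genes, among them near-identical copies. After TAM, 1 of 12 tested was called higher in reexpressed over deleted cells, the IRG-like gene *F830016B08Rik* (2.62-fold, 2.04–3.4), where 7.13% of all genes were, and the median of the list was 0.54 on the log2 scale beside 0.60 for the 10 members.

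Other IFNγ target genes, 20 in all and picked for antigen presentation, chemokines and the Th1-like program, were called higher for 7 and lower for 1 of 17 tested in untreated rKO1 over WT cells (8.6% and 7.11% of all genes), at a median of 0.61 on the log2 scale. *Ciita*, the master regulator of MHC class II, was 8.38-fold (5.83–12.5, 310 against 32 reads), the chemokine *Cxcl9* 5.37-fold and the serpin *Serpina3g* 5.31-fold higher. Antigen-presenting cells express *Ciita* and *Cxcl9* strongly, and in this pair 5 of 10 tested myeloid and dendritic cell markers were called higher as well; their part was not tested. *Cxcr3*, the receptor of the Th1-like program, was at 30.9, 43.9, 2.36, 88.5, 57.8 and 305. *Cxcr3* was 18.6-fold lower in mosaic *Brg1*-deleted than in *Brg1*-sufficient cells (15.2–23.1), and 5.27-fold higher in reexpressed than in deleted cells after TAM (5.01–5.54). The 10 members had no change of that size in either pair: their differences stayed within 1.61-fold in mosaic cells and within 2.33-fold after TAM.

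Type I IFN target genes went the opposite way in untreated rKO1 cells. Of 20 genes, 17 were called lower in untreated rKO1 than in WT cells, at a median of -2.60 on the log2 scale, where 7.11% of all genes were called lower, and 18 of 20 lay wholly below in rKO1 cells, where 12.5% of all genes did. *Oas2*, *Oasl1* and *Oas3*, antiviral enzymes or their relative, were 26.2-fold (14.2–56.0), 22.7-fold (13.8–40.4) and 13.6-fold (8.75–22.5) lower. No type I target was called between the mosaic populations, where 2.09% of all genes were called higher and 4.03% lower. After TAM, 1 of 13 tested was called higher and 1 lower, against 7.13% and 5.62% of all genes. In mosaic *Brg1*-sufficient over WT cells, both of healthy hosts, 1 of 20 was called higher and 2 lower, against 5.14% and 4.18%. Beyond counting error, 15 were lower and 3 higher in that pair, at a median of -0.55 on the log2 scale. In untreated rKO1 over WT cells the medians of the GTPases (0.71) and other IFNγ targets (0.61) therefore had the sign opposite to the type I targets. *Ifi47*, *Irgm1* and *Igtp* had the sign of the type I targets, which *Igtp* lost when scaled by total reads alone. All of *Ifi47*, *Irgm1* and *Igtp* were also lower in mosaic *Brg1*-sufficient than in WT cells. Over mosaic *Brg1*-deleted cells, *Igtp* was higher in untreated rKO1 cells, by 0.42 on the log2 scale. In that pair 16 of 19 tested type I targets were called lower, against 6.96% of all genes.

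**Figure D4:**
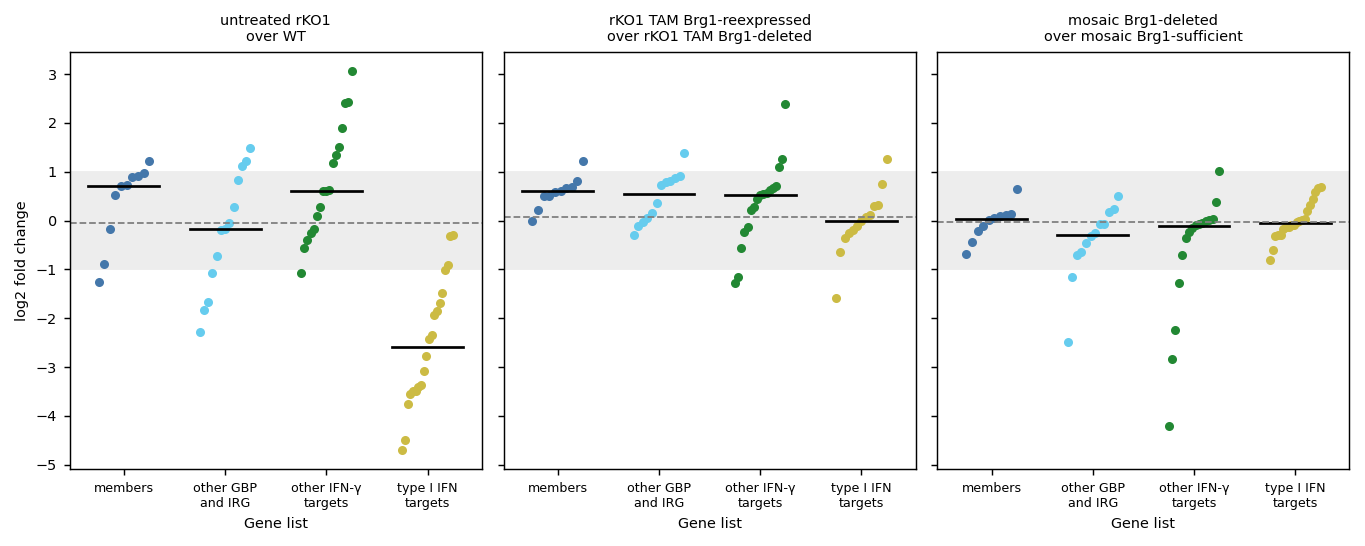
Log2 fold changes of the 10 members, the other GBP and IRG genes, other IFNγ targets and type I IFN targets in 3 pairs of libraries, with 1 point per tested gene, black lines for list medians, the dashed line for the median of all genes and the gray band for differences under 2-fold. In untreated rKO1 over WT cells the medians are 0.71 for the members and -2.60 for the type I targets.

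The members were not alike across the 6 total Treg libraries. As a description over 6 libraries that differ in host and *Brg1*, Pearson's r of each gene's log2 level with the mean of the standardised members was highest for *Iigp1* (0.95), *Irgm2* (0.85) and *Gbp2* (0.81), and lowest for *Gbp5* (0.47), *Irgm1* (0.27) and *Ifi47* (-0.14). Among 11029 other genes the most alike to that mean were *Rnf181* (0.99), *Gcc1* (0.97), *Asb1*, *Pet100* and *Fbxo45* (each 0.96), *Trmt12*, *Smim24*, *Gm42031*, *Tap1* and *Apaf1* (each 0.95). *Tap1*, the peptide transporter of MHC class I presentation, was the only one of these 10 on the list of IFNγ targets. It stood at 44.98, 42.2, 43.1, 68.7, 42.5 and 57.7. The r of each member is with a mean that includes the member itself, which raises it. The 10 other genes are the highest of 11029 over 6 libraries, so values this high can arise from selection alone. Levels of *Asb1* (0.65 to 1.37) and *Apaf1* (0.85 to 1.42) were low.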

How the data were processed

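RNA of sorted total Treg (6 libraries) and aTreg cells (2 libraries) was read as paired ends after SMART-Seq v4 cDNA synthesis. The authors deposited FPKM values, that is, reads per gene divided by exon length and a library total. The submitters' processing notes name HISAT2 2.0, StringTie 1.3.3b, featureCounts 1.5.0-p3 and mm10. Strand use and the treatment of reads with several matches are not given in the sources used here. Conditions were taken from the sample titles.

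Reads were recovered by multiplying each FPKM by the merged exon length of GENCODE M21 (GRCm38) and the library total, within a tolerance of 0.02 reads. In the total Treg experiment 93.4% of 26020 genes came out whole in all 6 libraries, and another length did so for 1278 more, *Iigp1* among them. In the aTreg experiment all of 21242 genes came out whole. Of 53465 identifiers, 105 had no length and were left out. Libraries of an experiment were scaled by an own trimmed mean of M-values (TMM, trimming 30% of M and 5% of A). TMM-scaled FPKM is the deposited FPKM times 0.910 to 1.02, depending on the library. A prior of 0.125 reads was added before log2 fold changes. Intervals were exact binomial (ratios) and exact Poisson (levels). The computation was tested on simulated data. The tools were Python 3.11.15, pandas 2.3.3, NumPy 2.4.6, matplotlib 3.10.9 and SciPy 1.17.1.

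A design of 1 library per condition allows no test, so genes were called at 2-fold where either library had 5 CPM or more. The genes and lists were chosen with earlier results of these data known. All 10 members were named. Of other lists, up to 3 called genes with the largest change, and 11 pathway genes and *Smarca4*, could be named, plus the 10 genes most alike to the members. Further markers were used to check the cell type. Alternatives covered the scaling, the pseudocount and the filter. Protein motifs were not analysed here. Values of 1 pathway gene are not reported here.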

Additional observations from a re-analysis of the deposited data

Results flagged for a closer look

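In 7 instances a gene moved one way in one setting and the opposite way in another, with 1 library per side, so that none of these differences was tested. Comparing cells with *Brg1* to cells without it in each host, *Gbp4* was at -0.65 in mosaic and 0.50 in TAM-treated rKO1 cells on the log2 scale. *Igtp* was at -0.12 and 0.59, *Irgm1* at -0.10 and 0.82, and *Ifi47* at -0.14 and 0.50 in the same settings.

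Comparing cells labelled *Brg1*-reexpressed to cells labelled *Brg1*-deleted after TAM, *Gbp2* was at 0.22 in total Treg and -0.66 in aTreg cells. *Gbp3* was at 0.68 and -0.12, and *Igtp* at 0.59 and -0.23. Scaled by total reads alone, *Gbp2* in total Treg cells was at -0.13, which removes its opposite direction. The aTreg values depend on labels that *Smarca4* goes against.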

How the results depend on the processing

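Every library stands for 1 condition, and the number of mice in it, the strand setting and the sharing of reads between paralogs limit each value. No paired analysis was possible because each condition has a single library and no test was made. Scaling by total reads alone shifted all genes of a comparison together, by up to 0.35 on the log2 scale. It changed the median of the members to 0.16 in mosaic deleted over sufficient cells, 0.25 in reexpressed over deleted cells after TAM, 1.01 in untreated rKO1 over WT, 0.90 in untreated rKO1 over mosaic deleted, -0.63 in TAM-treated deleted over untreated, 0.24 in reexpressed over WT and 0.32 in reexpressed over mosaic sufficient cells. It called 0 genes higher after TAM in place of 1, and 5 higher and 0 lower in untreated rKO1 over WT in place of 1 and 1. FPKM as deposited gave medians of 0.76 for untreated rKO1 over mosaic deleted cells and -0.23 for mosaic sufficient over WT cells. With log2(FPKM + 1) the former was 0.58. FPKM as deposited and median-of-ratios scaling each called 2 genes higher in reexpressed over mosaic sufficient cells and left 0 genes wholly below in rKO1 cells. The shares of all genes under these scalings and under total reads were not determined, so these counts have no background beside them. Leaving out each library in turn, an alternative chosen after seeing the data, gave between 3 and 6 genes wholly above and between 1 and 2 wholly below. Of all genes, between 12.3% and 18.1% then lay wholly above and between 15.1% and 24% wholly below. Without WT, 4 members lay above, against 18.1% of all genes, and 1 below, against 24%. Signs changed for 7 of 90 single values with total reads, 3 with FPKM as deposited, 1 with median of ratios and 1 with TMM over the pair, and for none with either filter or with log2(FPKM + 1). TMM over the pair and both filters moved no count or median beyond its margin.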
